A study of Pomacea canaliculata with 36 samples.

Results

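In eye stalks of *Pomacea canaliculata*, 37 genes had a short peak of RNA at 12 days post amputation (dpa) and were not raised at 1dpa. They were chosen from 19622 genes with summed counts of 10 or more, out of 21131 genes in the count table. A gene was taken when its mean level at 12dpa was at least 5 CPM (counts scaled to the size of the library) and at least 7/4 of its mean at 9dpa and of its mean at 15dpa. In addition its lowest 12dpa library lay above every 9dpa and 15dpa library, and its 1dpa mean was below 1.5 times the Intact mean. The levels at Intact, 1, 9, 12 and 15dpa therefore chose the genes and are given here as a description, with no test. The levels at 3, 6, 21 and 28dpa took no part in the choice, and comparisons among those 4 times were tested.

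*Pomacea canaliculata*, the apple snail, is a freshwater gastropod with a camera-type eye at the tip of a stalk, in which a lens behind a cornea throws an image on a cup-shaped retina. After the eye is cut off the snail can rebuild it: the wound closes, cells of the stump divide, and lens and retina form again. RNA of a gene that is used by mature eye tissue leaves with the amputated eye and can return as new tissue differentiates, whereas RNA of a gene used in wound closure or in building tissue can be raised for a limited time. In RNA from whole stalk tissue, fewer cells of a type and less RNA per cell cannot be told apart.

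Polyadenylated RNA was sequenced from eye stalks in 36 libraries, 4 each from Intact stalks and from stalks at 1, 3, 6, 9, 12, 15, 21 and 28dpa. The labels give no strain, age or sex and do not tie the libraries to single animals. The p-values therefore reflect library-to-library spread only, which may be technical. The design text lists day 7 where the library labels have day 6 (6dpa), and the labels were followed. Total counts ran from 21797015 to 32928737 per library, and 19.2 counts made 1 CPM in the library with the fewest. Depth was greatest at 12dpa, with 31.4 ± 2.19 M counts per library (SD, n = 4), against 24.5 ± 1.52 M for Intact; no batch is given in the labels. The genes carry only locus identifiers in the sources used here, with no product names, so no role is given for any of them and the tissue could not be checked against its markers.

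The description "raised at 12 days" held against the neighbouring times and not against the intact eye. All 37 genes were higher at 12dpa than at 9 and 15dpa, as the rule requires, yet only 15 had a higher mean at 12dpa than in Intact stalks. Among the 11965 genes with at least 5 CPM at 12dpa, 54.3% did. The highest of the 9 group means was that of Intact for 20 of the 37 genes, of 12dpa for 10, of 28dpa for 6 and of 3dpa for 1. Among the 11965 genes, Intact held the highest mean for 20.3%, 12dpa for 5.16% and 28dpa for 5.11%. "Not at 1" meant, for nearly all of the genes, a level below Intact; the rule used both levels. At 1dpa 36 of 37 had a lower mean than in Intact, against 50.1% of the 17343 genes tested, and 25 a mean under 10% of Intact, against 5.89%.

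Expressed as a percentage of each gene's Intact mean, the median over the 37 genes stood at 4.16% on day 1, 4.74% on day 3 and 12% on day 6. It reached 29.2% by 9dpa and 76.1% by 12dpa, was back to 33.5% on day 15, and then stood at 50.4% on day 21 and 65.4% on day 28. As a description, since 9 and 15dpa served to choose the genes, 32 of 37 had a higher mean at 15dpa than at 9dpa, 31 were higher at 21dpa than at 15dpa, and 31 were higher at 28dpa than at 21dpa. The corresponding shares of the 11965 genes were 44.3%, 47.3% and 45.2%. At 28dpa the mean was above the 12dpa mean for 18 of the 37 genes and 42.6% of the 11965 genes. At that time 14 had at least 80% of their Intact level, a share of 83.7% among the 11965 genes. Another 10 of the 37 were still under 50% of Intact at 28dpa, against 2.57% of the 11965 genes.

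**Figure D1:**
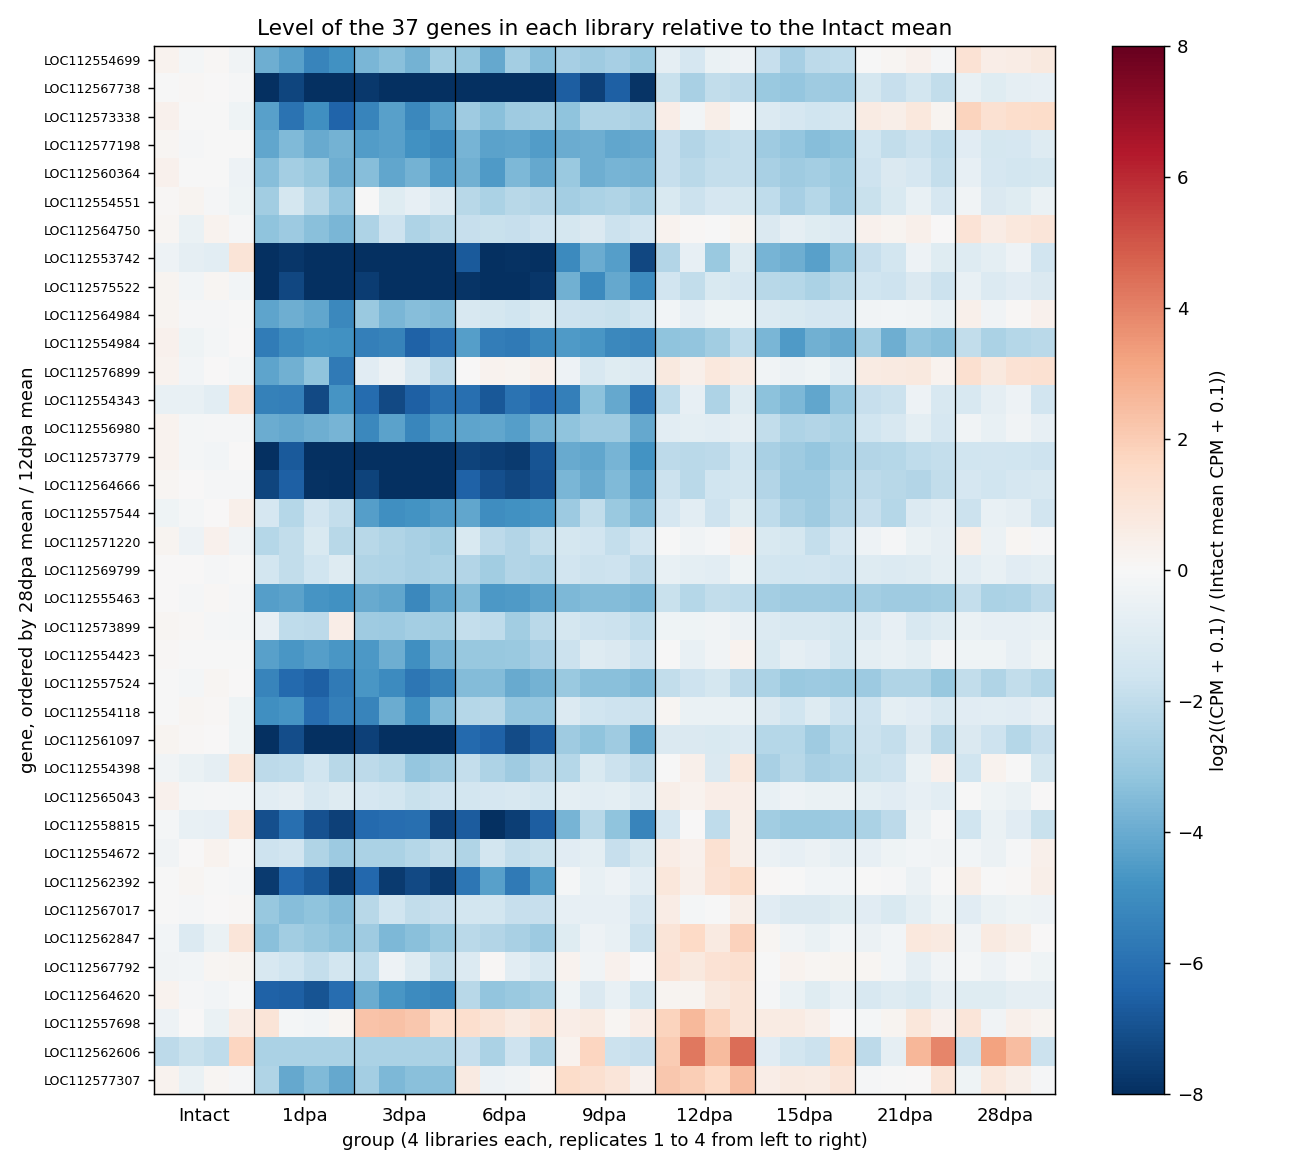
Log2 ratio of the level in each library to the Intact mean, with 0.1 CPM added to both (colour, clipped beyond 8 in either direction), for the 37 genes (rows) in the 36 libraries (columns, by group). Most rows are blue from 1 to 6dpa, pale at 12dpa, darker at 15dpa and pale again at 28dpa.

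Counted by a 2-fold difference of means, with no test, 34 of the 37 genes were lower than Intact at 1dpa and 0 were higher, where 27.7% of the 17343 tested genes were lower and 19.7% higher. At 3dpa 35 were lower (20.9% of tested genes) and 1 was higher (11.9%). At 6dpa the counts were 33 lower (13.9%) and 1 higher (9.31%), and at 9dpa 27 lower (8.7%) and 1 higher (8.91%). At 12dpa 14 were lower (13.1%) and 6 higher (10.1%). By 15dpa 26 were lower again (8.37%) and 0 higher (9.77%). At 21dpa 17 were lower (6.33%) and 1 higher (8.95%), and at 28dpa 10 were lower (5.14%) and 3 higher (7.82%). All 4 libraries at 12dpa lay above all 4 Intact libraries for 7 of the genes (24.5% of tested genes) and below them for 17 (25.1%).

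LOC112567738 had the most counts of the 37 genes in Intact stalks and illustrates loss, peak and return. Its level in the 4 Intact libraries was 2423, 2591, 2534 and 2359 CPM. At 1dpa it was 5.79, 15.3, 1.90 and 1.30 CPM, and at 3dpa 11.6, 0.877, 0.912 and 0.993 CPM. The early libraries were all far below Intact, and 1 library at each of these times stood above the other 3. The gene was still at 3.66, 1.87, 4.83 and 1.69 CPM at 6dpa and reached 25.6, 13.9, 27.0 and 10.8 CPM at 9dpa. At 12dpa the libraries held 731, 404, 637 and 573 CPM, and at 15dpa 317, 294, 341 and 328 CPM, with no overlap between these times. At 12dpa the mean of 586 ± 138 CPM (SD, n = 4) was 23.7% of Intact. The level then was 921, 703, 903 and 631 CPM at 21dpa and 1636, 1252, 1516 and 1570 CPM at 28dpa, where every library exceeded every 12dpa library and none reached Intact.

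LOC112575522 followed a like course and only just met the rule, its 12dpa mean being 1.753 times its 15dpa mean. It had 540, 411, 530 and 406 CPM in Intact stalks and between 0.0326 and 2.99 CPM in the 8 libraries of 1 and 3dpa. At 12dpa the libraries held 163, 121, 201 and 189 CPM and at 15dpa 102, 98.8, 83.3 and 99.7 CPM. The 12dpa mean was 35.7% of Intact and the 28dpa mean 53.1%. LOC112555463 was the next above the threshold, with a ratio of 1.77 and means of 4.22, 12.3 and 6.95 CPM at 9, 12 and 15dpa. Just under it lay LOC112573705, with a ratio of 1.745 and means of 7.84, 17.8 and 10.2 CPM, and LOC112571434, with a ratio of 1.744 and means of 63.6, 111 and 48.5 CPM. On the criterion for 1dpa the 37 genes ended at LOC112557698, at 1.222 times Intact, and the nearest gene left out was LOC112557139, at 1.626 times Intact.

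LOC112577198, LOC112554984 and LOC112560364 were among the genes that remained well below Intact at 12dpa. LOC112577198 had 77.6, 64.5, 69.4 and 67.4 CPM in Intact stalks, and 19.6, 13.6, 16.8 and 18.4 CPM at 12dpa. At 15dpa it had 9.47, 8.18, 6.56 and 7.07 CPM, below all 12dpa libraries. The mean of LOC112554984 was 54.6 ± 11.9 CPM in Intact stalks, 8.30 ± 3.63 CPM at the peak and 11.7 ± 1.83 CPM on day 28 (SD, n = 4). LOC112560364 had 53.5 ± 11.7 CPM in Intact stalks, 13.8 ± 1.22 CPM at the peak and 23.8 ± 7.15 CPM on day 28 (SD, n = 4). For all 3 genes the 28dpa mean was under 50% of Intact.

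At 3dpa 10 of the 37 genes were under 1% of their Intact mean, against 0.435% of the 11965 genes, and 24 were under 10%, against 2.46%. LOC112573779 was one of the 10, with 429 ± 73.6 CPM in Intact stalks, 0.505 ± 0.726 CPM on day 3 and 112 ± 22.4 CPM at the peak (SD, n = 4). LOC112561097 was another, with 128 ± 19.3 CPM in Intact stalks and 57.9 ± 2.15 CPM at the peak, and LOC112564666 a further one, with 101 ± 9.21 and 31.2 ± 6.01 CPM. The 12dpa means of these 3 genes were 26.0%, 45.1% and 30.7% of Intact, and their 28dpa means 33.1%, 31.2% and 38.3%. For LOC112561097 the mean on day 28 was thus below that of day 12, a difference that was not tested. Its 28dpa libraries held 57.2, 40.0, 26.8 and 36.4 CPM, and replicate 1 overlapped the 12dpa libraries, of which the lowest held 55.2 CPM.

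Other genes were less depleted or came closer to Intact. LOC112573899 had 46.9 ± 4.94 CPM in Intact stalks, 36.6 ± 2.48 CPM at the peak and 29.6 ± 26.2 CPM on day 1 (SD, n = 4), where replicate 4 held 66.7 CPM and the others 10.8 to 29.5 CPM. LOC112569799 was at 35.7% of Intact on day 1 and 65.1% at the peak. LOC112554423, LOC112554118 and LOC112556980 reached 91.1%, 79.0% and 57.1% of Intact at the peak. By contrast, LOC112557524 was at 1.46% of Intact on day 1, 2.57% on day 3 and only 29.1% at the peak.

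**Figure D2:**
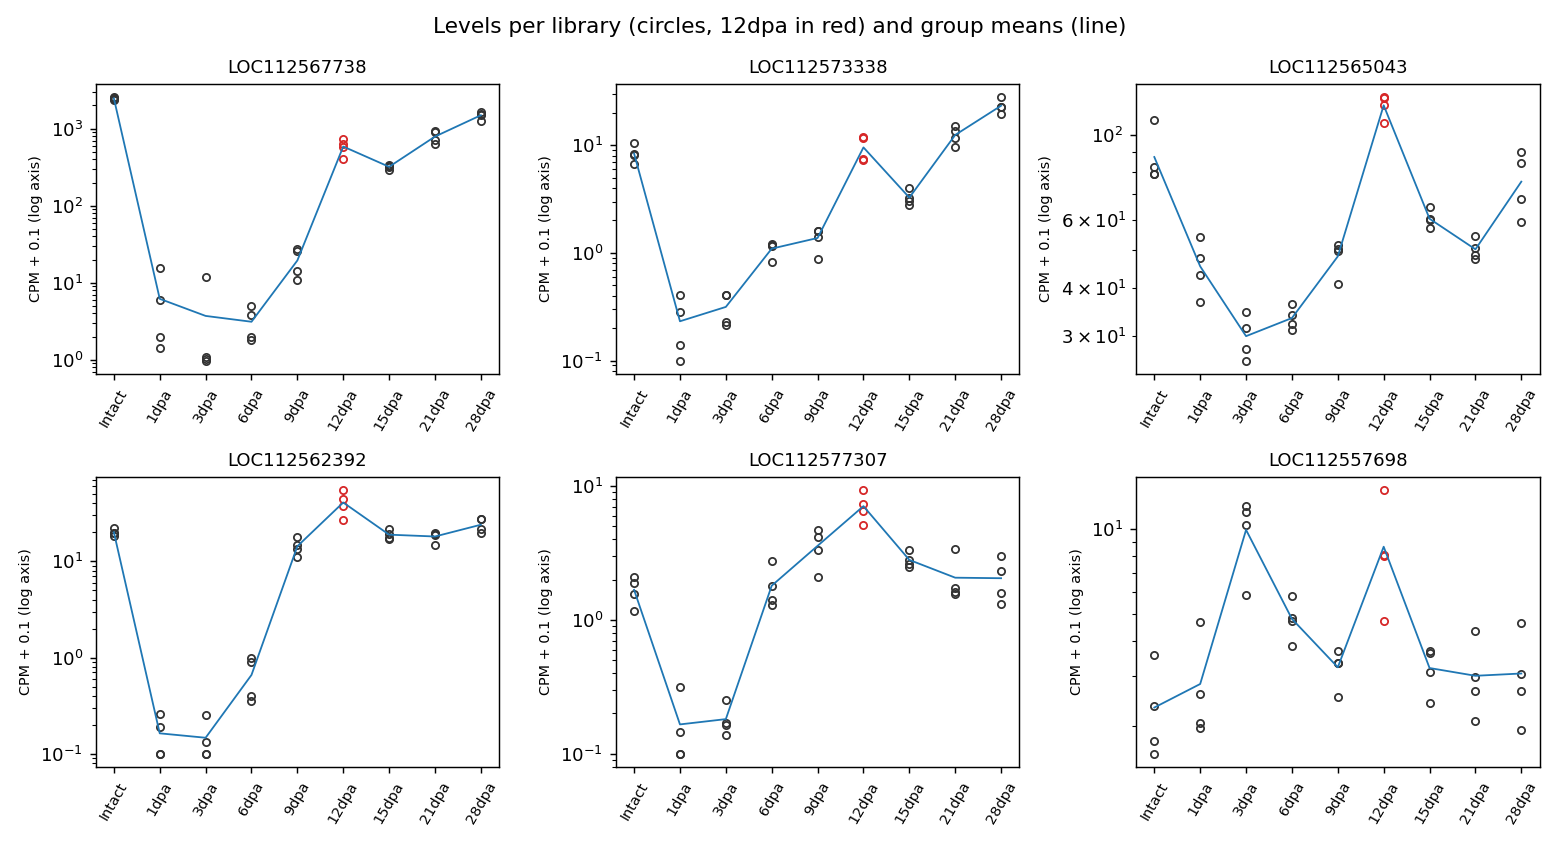
Level in CPM plus 0.1 (log axis) of 6 of the genes in each library (circles, red for 12dpa) from Intact to 28dpa, with lines through group means. All 6 peak between 9 and 15dpa; LOC112567738 and LOC112573338 are higher still at 28dpa, and LOC112557698 has another peak at 3dpa.

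The 10 genes whose 12dpa mean was the highest of the series were LOC112565043, LOC112567792, LOC112554398, LOC112562847, LOC112564620, LOC112562392, LOC112562606, LOC112577307, LOC112554672 and LOC112567017. LOC112562392 was almost absent early and above Intact at the peak. It had 19.7, 22.0, 19.7 and 18.3 CPM in Intact stalks and at most 0.162 CPM in any library of 1 or 3dpa. At 9dpa it had 17.9, 13.2, 14.8 and 11.1 CPM, below all Intact libraries, and at 12dpa 37.2, 26.4, 44.4 and 54.9 CPM, above every Intact library. At 15dpa it was back at 21.7, 19.3, 17.5 and 16.8 CPM, which overlapped Intact. LOC112564620 took a similar course, with 34.8, 26.2, 24.4 and 27.3 CPM in Intact stalks and 33.0, 32.2, 48.3 and 57.1 CPM on day 12, where 2 libraries overlapped Intact. At 15dpa LOC112564620 had 26.6, 19.7, 14.1 and 18.9 CPM, with replicate 1 within the Intact range and the others below it. Its 28dpa libraries, at 14.3, 14.4, 17.4 and 17.3 CPM, were all below Intact.

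LOC112577307 had the highest fold over Intact after LOC112562606. It held 1.98, 1.07, 1.80 and 1.47 CPM in Intact stalks and 7.26, 6.38, 5.05 and 9.24 CPM at 12dpa, a mean 4.42 times higher with no overlap. Unlike most of the genes it overlapped its Intact level by 6dpa, with 2.63, 1.18, 1.30 and 1.69 CPM. LOC112567792 had 28.0, 29.7, 38.2 and 40.0 CPM in Intact stalks and 71.9, 59.3, 75.4 and 81.9 CPM at 12dpa. Its 12dpa mean was 2.12 times Intact, and its 28dpa libraries, at 30.0, 25.8, 31.5 and 26.8 CPM, overlapped Intact. LOC112565043 was at 51.9% of its Intact mean at 1dpa and 34.1% at 3dpa. It had 109, 78.8, 82.3 and 79.0 CPM in Intact stalks, 47.8, 53.9, 36.7 and 43.0 CPM at 1dpa and 119, 107, 125 and 125 CPM at 12dpa. The 12dpa libraries overlapped the Intact range only through Intact replicate 1, and both groups were above all 1dpa libraries.

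For LOC112562606 the level at 12dpa was 15.2 times Intact, and single libraries set much of that value. Intact replicates 1 to 3 had 0.0388, 0.0738 and 0.0439 CPM and replicate 4 had 1.80 CPM. No count was found at 1 or 3dpa, over 4 libraries each, and the 12dpa libraries had 2.31, 10.9, 3.27 and 13.1 CPM. At 28dpa replicates 2 and 3 had 5.37 and 3.10 CPM while replicates 1 and 4 had 0.0808 and 0.0801 CPM. LOC112554672 and LOC112567017 varied less. The mean of LOC112554672 was 3.34 ± 0.559 CPM in Intact stalks and 5.50 ± 1.71 CPM at 12dpa, and that of LOC112567017 was 11.4 ± 0.561 and 13.4 ± 3.33 CPM (SD, n = 4).

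**Figure D3:**
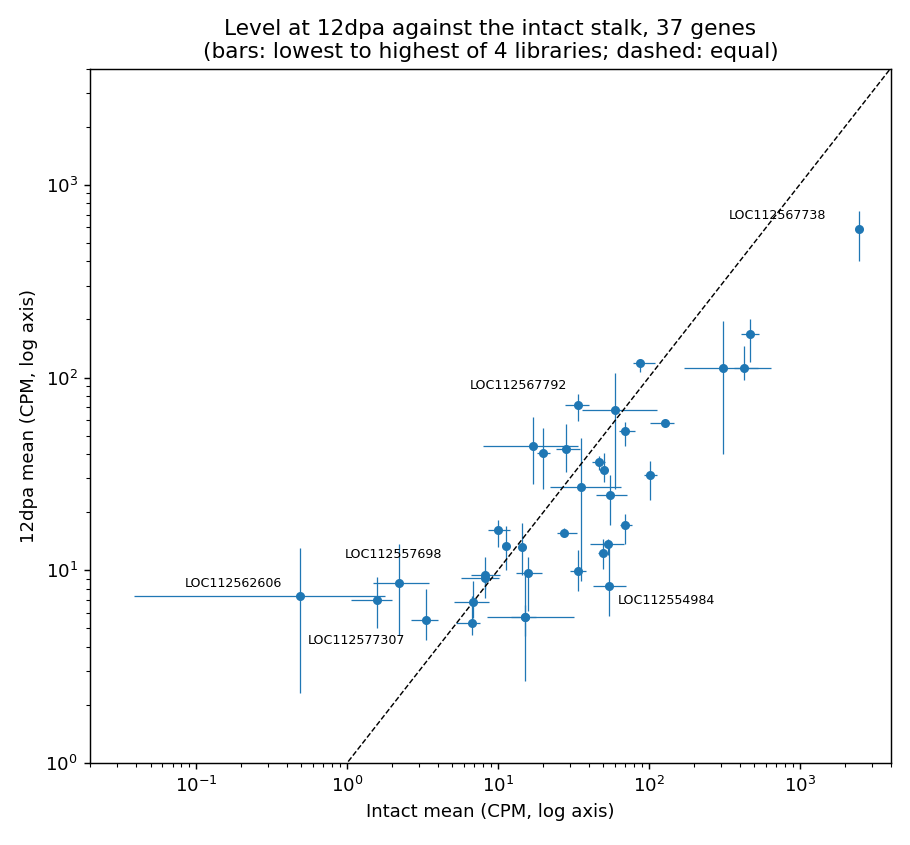
Mean level at 12dpa against mean level in Intact stalks, both in CPM on log axes, for the 37 genes; bars run from the lowest to the highest of 4 libraries. Points above the dashed line of equality are the 15 genes whose mean was higher at 12dpa, with LOC112562606 and LOC112577307 farthest above it.

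The 6 genes that were highest at 28dpa include LOC112554699, LOC112573338, LOC112576899 and LOC112564984. LOC112573338 had 10.3, 7.93, 8.21 and 6.63 CPM in Intact stalks, 11.8, 7.18, 11.5 and 7.38 CPM on day 12 and 28.1, 19.4, 22.5 and 22.8 CPM at 28dpa. Its 12dpa libraries overlapped Intact and its 28dpa libraries were above both, at a mean 2.80 times Intact. LOC112554699 had a mean of 15.9 ± 2.80 CPM in Intact stalks, 9.64 ± 2.49 CPM at the peak, 3.59 ± 0.781 CPM on day 15 and 27.5 ± 5.67 CPM on day 28 (SD, n = 4). LOC112576899 had more than 1 high point. Its mean was 10.1 CPM in Intact stalks and 0.536 CPM on day 1. It was then 11.8 CPM on day 6, 5.40 CPM on day 9, 16.1 CPM at the peak, 7.32 CPM on day 15 and 22.2 CPM on day 28. The other members of this class were LOC112564750, with means of 8.21 CPM in Intact stalks, 9.13 CPM at the peak and 15.1 CPM on day 28, and LOC112571220, with 6.84, 6.89 and 7.09 CPM, which differed by less than the spread between libraries. LOC112564984 had means of 69.3, 52.8 and 77.1 CPM at Intact, 12 and 28dpa, and its 28dpa libraries overlapped Intact.

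Only LOC112557698 had its highest mean at 3dpa. It was at 1.67, 2.25, 1.49 and 3.48 CPM in Intact stalks and at 11.4, 11.9, 10.3 and 5.72 CPM at 3dpa. At 12dpa it had 7.95, 13.7, 8.01 and 4.60 CPM, and at 28dpa 4.53, 1.83, 2.96 and 2.56 CPM. The gene thus had separate high levels at 3 and 12dpa, both above every Intact library. LOC112554551 also stood higher at 3dpa than around it, with 14.6, 7.74, 9.71 and 7.05 CPM against 2.13, 5.78, 3.13 and 1.67 CPM at 1dpa. Its Intact libraries held 16.4, 17.8, 14.4 and 12.2 CPM and its 12dpa libraries 6.59, 4.57, 5.94 and 5.76 CPM, all below Intact.

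The 4 times that took no part in the choice were compared with edgeR's quasi-likelihood test with Benjamini-Hochberg adjustment over 17343 genes, and an adjusted p below 0.05 was called. From 3 to 6dpa, 14 of the 37 genes rose and 2 fell, where 16.6% of tested genes rose and 13.3% fell. The median log2 fold change was 0.68 over the 37 genes and 0.0013 over all tested genes. LOC112577307 rose by a log2 fold change of 4.33 ± 0.512 (SE; adjusted p = 9.43e-08), from 0.154, 0.0381, 0.0652 and 0.0685 CPM at 3dpa to the 6dpa levels given above. LOC112562392 rose by 3.49 ± 0.63 on the log2 scale (adjusted p = 7.88e-05), with 0.878 CPM in its highest 6dpa library. Its value was 5.09 without 3dpa replicate 1, which held most of its few counts at 3dpa. LOC112564984, at 8.95, 5.38, 6.48 and 5.82 CPM at 3dpa and 28.6, 26.1, 23 and 29.8 CPM at 6dpa, rose by 2.01 ± 0.171 (adjusted p = 2e-10). LOC112576899 rose by 1.34 ± 0.257 (adjusted p = 0.000173). The 2 genes that fell were those high at 3dpa: LOC112554551 by 1.71 ± 0.287 (adjusted p = 2.85e-05) and LOC112557698 by 1.06 ± 0.316 on the log2 scale (adjusted p = 0.0108).

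The other genes that rose from 3 to 6dpa were LOC112573779, LOC112561097, LOC112564620, LOC112564666, LOC112577198, LOC112556980, LOC112554423, LOC112557524, LOC112573338 and LOC112554118, with log2 fold changes between 0.54 and 2.39. LOC112556980 lost its call under 9 alternative settings (adjusted p 0.0509 to 0.178) and LOC112577198 under 5 (0.094 to 0.162). For the remaining 21 of the 37 the change did not pass the test. LOC112567738 was among these, at a log2 fold change of -0.22 (adjusted p = 0.823). Its 3dpa replicate 1 held 11.6 CPM, and without that library the value was 1.70 (adjusted p = 0.0319). The same library was the highest of the 4 for 20 of the 37 genes and 40% of tested genes, and 1dpa replicate 2 was the highest of its group for 18 of the 37 and 24.9% of tested genes. LOC112562530 and LOC112576458, genes with many counts in the intact stalk that are not among the 37, were also highest in those libraries. LOC112562530 was at 156 CPM in 3dpa replicate 1 and at 10.5 to 24.7 CPM in the other 3 libraries, and LOC112576458 at 37.3 CPM against 0.274 to 0.648 CPM. Their part in the result was not tested; without 3dpa replicate 1, 17 of the 37 genes rose from 3 to 6dpa.

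From 6 to 21dpa, times on either side of the peak, 33 of the 37 genes rose and 0 fell by the adjusted test, where 19.9% of tested genes rose and 22.6% fell; 1 was lower at an unadjusted p below 0.05 (26.5% of tested genes). The median log2 fold change was 2.10 against -0.0308 over all tested genes. All 4 libraries at 21dpa lay above all 4 at 6dpa for 32 of the 37 genes (17.5% of tested genes) and below them for 0 (22.3%). LOC112567738 had the largest log2 fold change, 8.02 ± 0.732 (SE; adjusted p = 7.21e-10). LOC112558815, at 0.257, 0.0382, 0.0905 and 0.277 CPM at 6dpa and 6.00, 8.34, 24.9 and 33.8 CPM at 21dpa, rose by 6.71 ± 0.789 (adjusted p = 7.75e-08). LOC112553742 rose by 6.64 ± 0.757 (adjusted p = 5.11e-08). At the other end, LOC112565043 rose by 0.60 ± 0.122 (adjusted p = 0.000247).

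The 4 genes that did not pass between 6 and 21dpa were LOC112567792, LOC112576899, LOC112557698 and LOC112577307. LOC112577307 had 1.45, 1.51, 1.63 and 3.29 CPM at 21dpa, which overlapped its 6dpa libraries (log2 fold change 0.20 ± 0.367, adjusted p = 0.68). LOC112567792 had a log2 fold change of 0.45 ± 0.269 (adjusted p = 0.183), LOC112576899 of 0.38 ± 0.248 (adjusted p = 0.223) and LOC112557698 of -0.69 ± 0.322 (adjusted p = 0.0862). For these 4 genes the levels before and after the 12dpa peak were not shown to differ, which does not show that they were equal. By 6dpa the mean of each was at least 60% of its Intact mean. The means stood at 62.7% for LOC112567792, 118% for LOC112576899, 211% for LOC112557698 and 108% for LOC112577307. For LOC112567792 the 6dpa mean leaned on replicate 2, at 36.2 CPM. The other replicates held 14.1 to 19.2 CPM, below every Intact library.

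**Figure D4:**
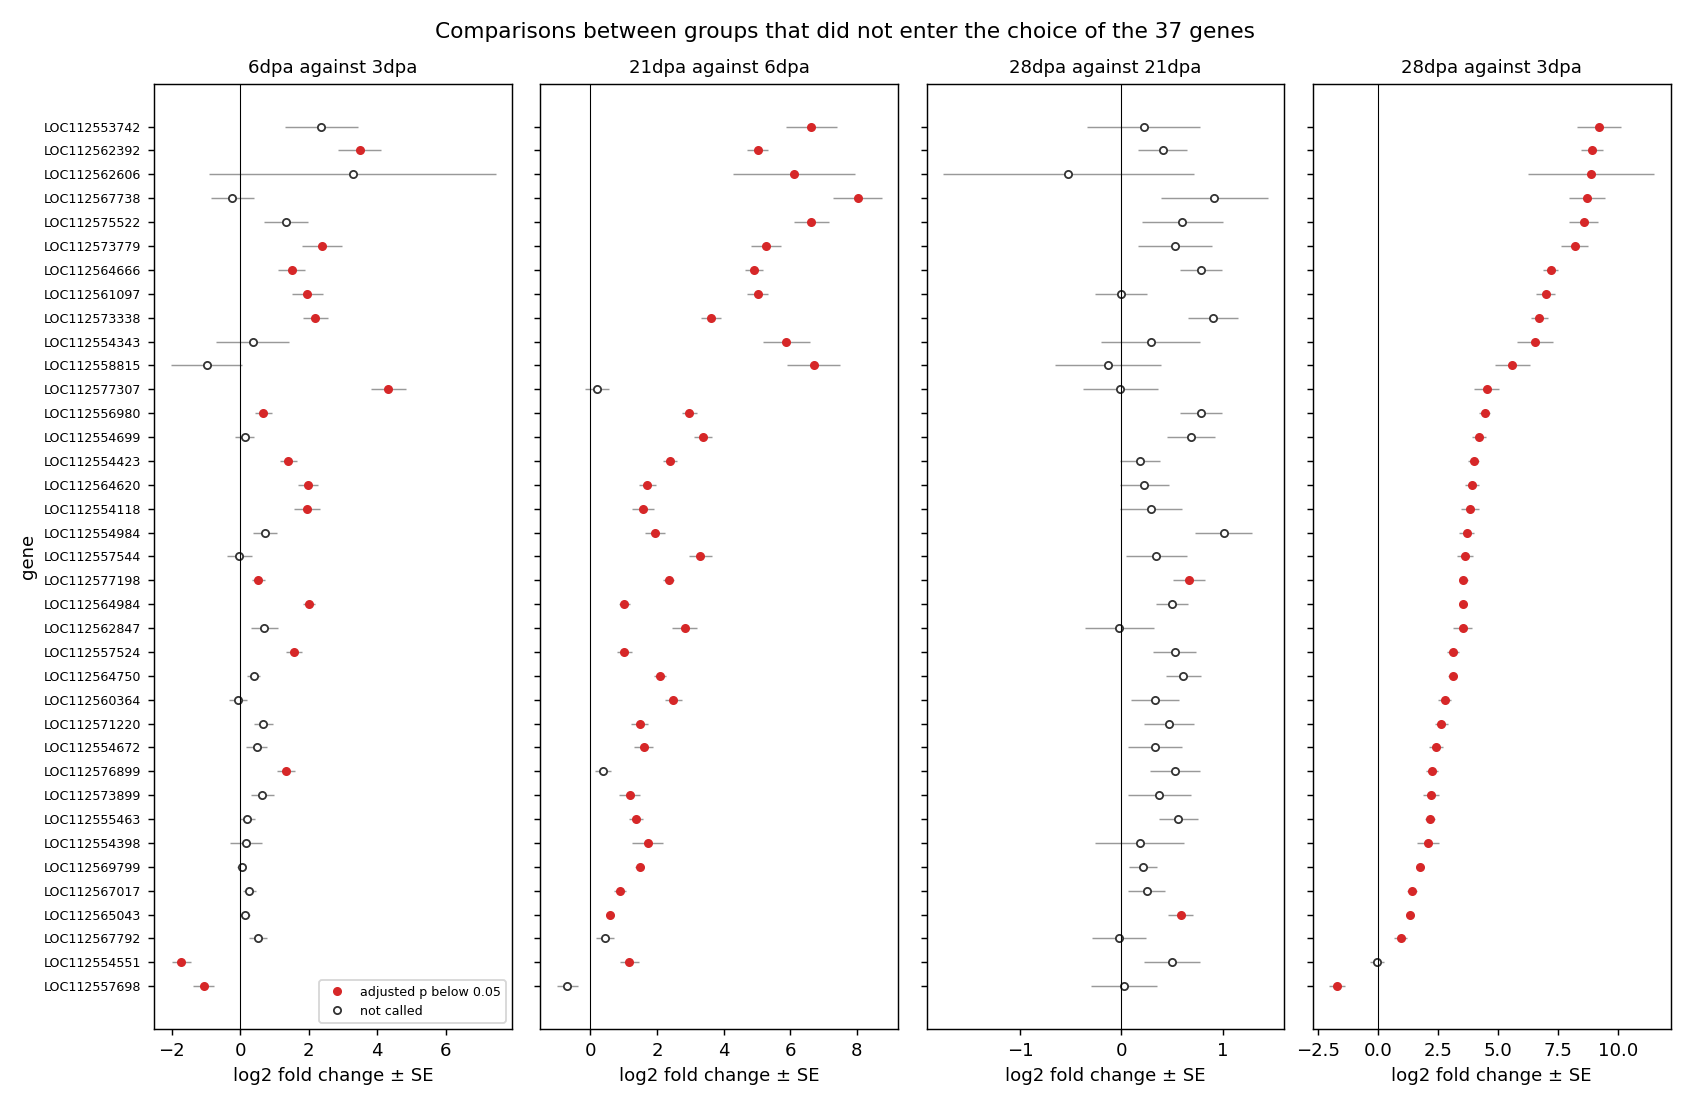
Log2 fold changes of the 37 genes (points, with bars of 1 SE; filled red where the adjusted p was below 0.05) in the 4 comparisons among 3, 6, 21 and 28dpa; the line marks no change. From 6 to 21dpa 33 genes lie to the higher side and pass the test, and from 21 to 28dpa only 2 pass.

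Between 21 and 28dpa 2 of the 37 genes rose and 0 fell, where 0.231% of tested genes rose and 0.254% fell; at an unadjusted p below 0.05, 12 were higher (4.1% of tested genes) and 0 lower (6.93%). LOC112577198 had 23.3, 17.8, 21.0 and 16.9 CPM at 21dpa and 37.9, 25.9, 27.8 and 34.1 CPM at 28dpa, with no overlap, and rose by 0.67 ± 0.158 on the log2 scale (SE; adjusted p = 0.0453). LOC112565043 had 50.7, 47.3, 54.4 and 48.4 CPM at 21dpa and 84.1, 68.0, 59.3 and 90.1 CPM at 28dpa and rose by 0.59 ± 0.122 (adjusted p = 0.0216). The number of genes called here depended on the test: when the model was fitted to the 21 and 28dpa libraries alone 0 passed, DESeq2 called 8 and limma-voom 9. Neither gene kept its call when certain single libraries were left out, and the count was 0 without 21dpa replicate 3, 21dpa replicate 4, 28dpa replicate 1 or 28dpa replicate 4, and 1 without 21dpa replicate 2 or 28dpa replicate 3.

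From 3 to 28dpa 35 of the 37 genes rose and 1 fell, where 31.2% of tested genes rose and 31.2% fell. The median log2 fold change was 3.62, against 0.000173 over all tested genes, and 24 of the genes rose by at least 8-fold, against 3.79% of tested genes. LOC112553742 rose most, by 9.22 ± 0.916 on the log2 scale (SE; adjusted p = 8.52e-10), from 1.08, 0.0381, 0.0326 and 0.0342 CPM to 151, 182, 239 and 107 CPM. LOC112562392 rose by 8.92 ± 0.447 (adjusted p = 1.08e-16). Without 3dpa replicate 1 these values were 12.07 and 10.52. For LOC112562606, which had no count at 3dpa, the 28dpa mean was at least 80.6-fold higher than a floor of 3 counts over the group, a bound that covers counting error only. That mean came from replicates 2 and 3, at 5.37 and 3.10 CPM, while replicates 1 and 4 had 0.0808 and 0.0801 CPM. The call of LOC112562606 was lost under 1 alternative setting. LOC112567792 had the smallest rise that passed, 0.94 ± 0.273 (adjusted p = 0.0035). The gene that fell was LOC112557698, by 1.72 ± 0.325 (adjusted p = 3.33e-05), and LOC112554551 did not pass (log2 fold change -0.05 ± 0.275, adjusted p = 0.895).

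The 37 genes differed in how their 4 libraries at 12dpa ranked. Replicate 4 held the highest level for 17 of them, replicate 1 for 10, replicate 3 for 6 and replicate 2 for 4, where the shares over the 11965 genes with at least 5 CPM at 12dpa were 28%, 29.4%, 18.4% and 24.3%. A subset of 7 genes shared the order of their libraries at several times: LOC112553742, LOC112554398, LOC112562847, LOC112558815, LOC112557544, LOC112562606 and LOC112554343. In each of them replicates 2 and 4 were above replicates 1 and 3 at 12dpa, Intact replicate 4 was the highest Intact library, replicates 3 and 4 were above 1 and 2 at 21dpa, and replicates 2 and 3 were above 1 and 4 at 28dpa. These orders were read from the genes themselves, so the counts are a description: all 4 were met by 7 of the 37 genes and by 59 of the 17343 tested genes (0.34%). Taken singly, the order at 12dpa was met by 8 of the 37 (15.7% of tested genes), that of Intact by 10 (21.6%), that of 21dpa by 13 (16.7%) and that of 28dpa by 8 (23.9%).

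In LOC112553742 the 12dpa libraries held 60.5, 196, 40.2 and 150 CPM, so that replicates 2 and 4 averaged 3.44 times the others. Its Intact libraries were at 233, 192, 170 and 647 CPM, and its 21dpa libraries at 84.7, 111, 232 and 155 CPM. LOC112558815 had 13.9, 37.1, 8.82 and 48.7 CPM at 12dpa and 31.6, 23.7, 22.3 and 65.7 CPM in Intact stalks. Over the 7 genes, replicates 2 and 4 at 12dpa averaged 1.51 times (LOC112557544) to 4.30 times (LOC112562606) replicates 1 and 3. LOC112553742 and LOC112554343 lie next to each other in the gene table, with 0 genes between them, and were the only pair of the 37 within 5 genes of each other. Whether reads were shared between them could not be seen from the counts.

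**Figure D5:**
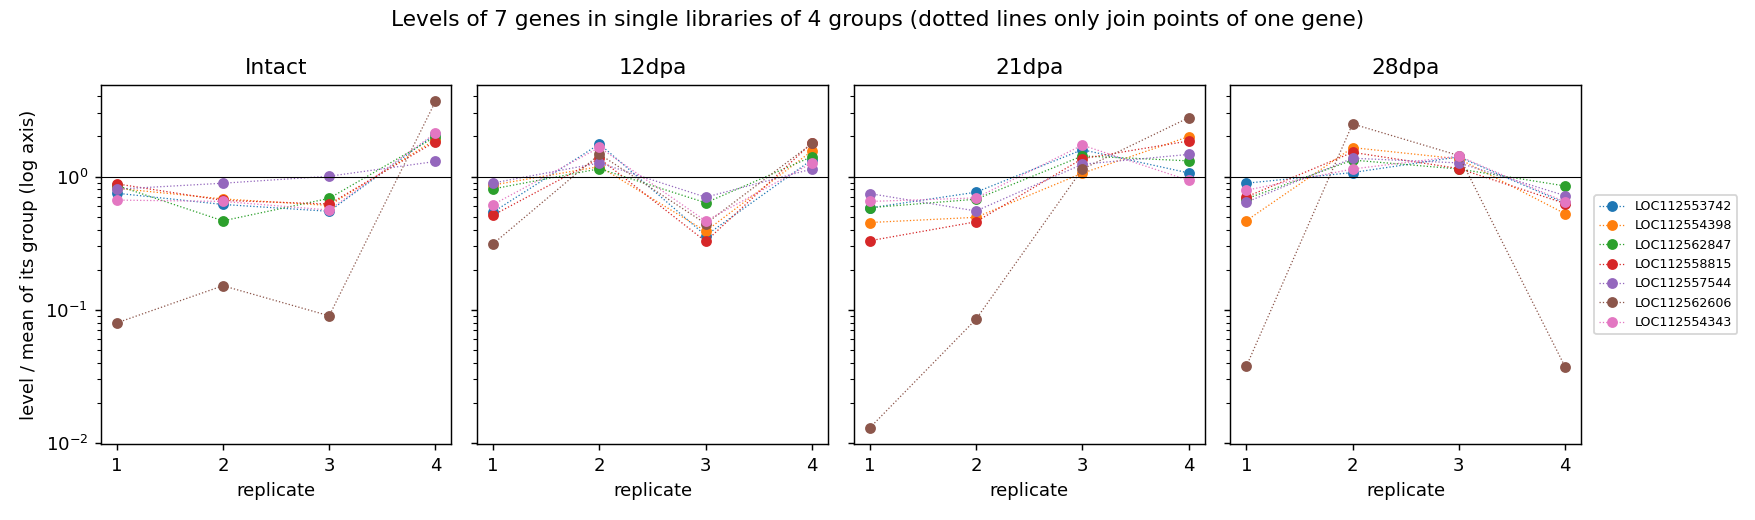
Level of each of 7 genes in each library divided by the gene's mean in that group (log axis), for Intact, 12, 21 and 28dpa; the horizontal axis is the replicate number and dotted lines only join points of one gene. Intact replicate 4, 12dpa replicates 2 and 4, 21dpa replicates 3 and 4 and 28dpa replicates 2 and 3 are the high libraries.

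Another 15 genes met the criteria for 12dpa and had at least 1.5 times their Intact level at 1dpa. In all, 52 genes were thus raised at 12dpa over 9 and 15dpa. Of the 15 genes, 3 had their highest mean at 12dpa and 11 at 1dpa. Their level at 1dpa was part of the choice, so this is a description with no test. From 3 to 6dpa 0 of the 15 rose and 9 fell (14 rose and 2 fell among the 37), from 6 to 21dpa 4 rose and 6 fell (33 and 0), and from 3 to 28dpa 3 rose and 9 fell (35 and 1). These counts were not tested against each other. The same criterion of neighbouring times, applied with the genes below their neighbours, found 267 genes lowered at 12dpa. At 9dpa 88 genes were raised and 2 lowered, and at 15dpa 27 were raised and 30 lowered. Thus 12dpa had more genes lowered than raised and 9dpa the reverse. The counts of neighbouring times share libraries, so a fall from 9 to 12dpa can enter both the genes raised at 9dpa and those lowered at 12dpa.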

How the data were processed

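Raw counts of reads on each gene were deposited in 1 table by the authors for the 36 libraries, 4 in each of 9 groups taken from the library labels. STAR is named in the submitters' processing notes; for its version, the genome build, the annotation and the strand setting no source used here gives a value, so genes that overlap or have near-identical copies may share counts. All 21131 identifiers matched a RefSeq gene table (assembly ASM307304v1), used only for symbols and for which genes are neighbours. Because it holds no product names, 14 gene lists and 20 protein patterns found 0 members.

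The members, lists and tests were chosen with earlier results of these data known. Counts were scaled by TMM factors in edgeR 4.0.16 (R 4.3.3). Genes kept by filterByExpr (17343, all 37 members included) were fitted in 1 quasi-likelihood model with a mean per group over all 36 libraries. The 4 comparisons among 3, 6, 21 and 28dpa were 2-sided, with Benjamini-Hochberg adjustment over all tested genes. CPM are TMM-scaled, with no length correction, so levels are not compared between genes. Folds against groups without a count use a floor of 3 counts over the group.

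Named were the members with the highest 12dpa levels and those with the largest 12dpa ratios to their neighbours. The leading changes of each comparison and the genes next to the threshold were named too. LOC112577307, LOC112554984, LOC112560364, LOC112564666, LOC112564750, LOC112567017, LOC112569799, LOC112573899, LOC112557544, LOC112562530, LOC112576458, LOC112554423, LOC112554118 and LOC112557524 were added after their values were seen. Alternatives were DESeq2 1.42.0 and its size factors, library size alone, limma-voom (limma 3.58.1), other filters, a fit to the groups compared only, a replicate block and each library left out in turn. Fits without the 12dpa libraries, with libraries thinned to the smallest total or with a robust prior, and ratio thresholds of 1.5 and 2, were added after seeing the data. The tests were run on simulated counts, drawn independently for each gene and library, with changes planted in 200 genes averaging at least 5 CPM. That simulation did not include libraries that are high for many genes together. Within groups, 54 pairs of libraries were compared by chi-square, with at least 9.78 per degree of freedom, more than counting error alone gives. Every library was counted as 1 sample, although this does not show that the libraries come from separate animals.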

Additional observations from a re-analysis of the deposited data

Results flagged for a closer look

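Over the 37 members, 26 of 331 groups of 4 libraries held 1 library far from the other 3, measured by its gap as a share of the group's range. Chance gives about 1 in 20 for independent, normally distributed values. Low counts and members that vary together need not follow that share, and no share over all genes was computed. At 3dpa replicate 1 was the high library in 4 members: LOC112567738 at 11.6 CPM (0.877 to 0.993 in the others), LOC112575522 at 2.31 (0.0326 to 0.229), LOC112553742 at 1.08 (0.0326 to 0.0381) and LOC112573779 at 1.58 (0 to 0.267). Intact replicate 4 was the high library in 4 members: LOC112553742 again, at 647 CPM, LOC112554398 at 113, LOC112562606 at 1.80 and LOC112554343 at 31.9. These 4 belong to the 7 members that share their library order.

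Single high libraries were also LOC112575522 at 21dpa replicate 3 (212 CPM), LOC112565043 at Intact replicate 1 (109 CPM), LOC112573779 at 12dpa replicate 4 (145 CPM), LOC112561097 at 1dpa replicate 2 (0.849 CPM), LOC112562606 at 15dpa replicate 4 (1.58 CPM), LOC112577307 at 21dpa replicate 4 (3.29 CPM) and LOC112557524 at 15dpa replicate 1 (5.80 CPM). LOC112554118 had 7.35 CPM in 12dpa replicate 1, against 4.63 to 4.64 CPM in the other 3, and 3.09 CPM in 9dpa replicate 1. LOC112560364 had 6.70 CPM in 9dpa replicate 1 and 34.4 CPM in 28dpa replicate 1. Single low libraries were LOC112561097 at 15dpa replicate 3 (17.7 CPM), LOC112564984 at 21dpa replicate 4 (44.9 CPM), LOC112562392 at 21dpa replicate 3 (14.5 CPM), LOC112573338 at 6dpa replicate 2 (0.725 CPM), LOC112560364 at 12dpa replicate 2 (12.0 CPM), LOC112567017 at 9dpa replicate 4 (4.43 CPM) and LOC112554423 at 28dpa replicate 3 (9.28 CPM).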

How the results depend on the processing

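Of 87 calls of a member in a comparison, 78 held under every alternative run that gave an adjusted p, and 9 were lost under at least 1; 0 turned direction. Those lost most often were LOC112556980 from 3 to 6dpa (9 settings, adjusted p 0.0509 to 0.178) and LOC112577198 from 21 to 28dpa (8 settings, 0.05 to 0.169). Next came LOC112577198 from 3 to 6dpa (5 settings, 0.094 to 0.162) and LOC112565043 from 21 to 28dpa (5 settings, 0.0517 to 0.14). From 21 to 28dpa the count of members that rose was 2, against 1 without a filter, 0 in the fit to the groups compared only, 9 with limma-voom and 8 with DESeq2, and 0 to 2 with a library left out. Members that fell from 6 to 21dpa numbered 0, 1 with library size alone and 0 to 1 with a library left out. From 3 to 6dpa 12 to 17 rose with a library left out. The number of members was 75 at a ratio of 1.5, 25 at a ratio of 2, and 35 (without 12dpa replicate 1) to 51 (without 12dpa replicate 2) with a library left out. The cause was not tested.

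Changes that did not pass the test and turned sign were that of LOC112567738 from 3 to 6dpa (0.71 with limma-voom; -0.56 to 1.70 with a library left out, the highest without 3dpa replicate 1), of LOC112577307 from 6 to 21dpa (-0.14 without 21dpa replicate 4, to 0.51) and of LOC112554551 from 3 to 28dpa (-0.22 to 0.21, above 0 without 3dpa replicate 1, 28dpa replicate 2 or 28dpa replicate 3). The labels do not say whether the replicate numbers pair the samples. In the comparisons among 3, 6, 21 and 28dpa, 3 of 16 same-numbered pairs correlated above 0.1 (range -0.217 to 0.162). All 3 were of replicate 1, and such correlations cannot show whether samples were paired. With the replicate number as a block 13 members rose and 2 fell from 3 to 6dpa, 33 and 0 from 6 to 21dpa, 2 and 0 from 21 to 28dpa, and 35 and 1 from 3 to 28dpa. Where 1 CPM stands for 19.2 counts, as in the smallest library, levels under 1 CPM rest on few counts.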
